A study of Mus musculus with 25 samples.

Results

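The genes that were higher and lower at the 1 h point of classical activation were measured in bone marrow-derived macrophages (BMDMs), the macrophages that grow out of bone marrow cultured with M-CSF. The comparison holds 6 of the 25 RNA-seq samples, 3 of control BMDMs and 3 of BMDMs given IFN-γ and LPS for 1 h. Its samples were taken by their labels. The comparison and the gene and marker lists below were chosen with earlier results of these data known. All 6 came from C57BL/6 mice, and M-CSF at 25 ng/ml was supplied over 4 days of differentiation. By their labels the treated cells received 100 U/ml IFN-γ and 100 ng/ml LPS for 1 h, and the controls received neither and carry a label of 4 h in culture. The cells are called IFN-γ-primed in the study, but the length of priming is not given in the sources used here. Whether a change began before the hour with LPS therefore cannot be told. The actions of IFN-γ, of LPS and of the different culture times also cannot be told apart. The 9 samples at 4, 12 and 24 h entered the statistical fit and give later levels without a test, and the other 10 samples of the series did not enter it. Nothing in the labels ties a sample to a mouse, and the study gives the samples as biological triplicates, so p-values measure the spread between these cultures.

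LPS is sensed by Toll-like receptor 4, whose adaptors switch on the transcription factor NF-κB and the MAP kinase cascades within minutes, and through a further adaptor the interferon regulatory factor that drives Ifnb1. IFN-γ acts through JAK kinases on transcription factors that bind GAS elements and induce a further layer of regulators, among them Irf1. Genes that need no newly made protein to respond are called primary or immediate-early response genes. Many of them code for transcription factors, for secreted messengers, or for inhibitors of the same signalling pathways.

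Between 2577288 and 2776685 sense-strand counts fell on genes in the control samples and between 2429310 and 2879838 at 1 h. The ribosomal precursor Rn45s took 34.9% to 38.1% of them in the control samples and 26.3% to 34.7% at 1 h and was removed, which left 1654877 to 2101752 counts per sample. Levels are given as CPM, sense counts scaled to the size of each library with TMM factors and not to gene length, so levels are compared between samples and not between genes, and a floor of 3 counts over a group came to 0.497 CPM in the control samples and 0.510 CPM at 1 h. Of 14 macrophage markers, all had counts, and their summed level was 34990.3 to 36801 CPM in the control samples and 38449 to 40104 CPM at 1 h. By the test described below, 5 of them were higher and 0 lower, so the sum does not describe each member. The summed level of 6 dendritic cell markers went from between 0.493 and 1.51 CPM to between 44.0 and 48.7 CPM, almost wholly from Clec9a (0.332 to 45.7 CPM), while Flt3 and Siglech had no counts. The 11 neutrophil and precursor markers in the files summed to 12.6 to 23.2 CPM in the control samples and 29.6 to 39.8 CPM at 1 h, without a member that passed the test. The sum of 8 stromal and endothelial markers was 91.8 to 130.1 CPM in the control samples and 67.3 to 90.2 CPM at 1 h, that of 10 lymphoid markers at most 2.52 CPM, and that of 9 erythroid and megakaryocyte markers at most 2.97 CPM. The part of such cells in the results below was not tested, and in bulk RNA a change in the number of cells of a type and in RNA per cell cannot be told apart.

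A gene was called higher or lower when its FDR (p of the quasi-likelihood test in edgeR, adjusted by Benjamini-Hochberg over all tested genes) was at most 0.01 and its log2 fold change at least 1.5 in size. At 1 h, 482 of 9568 tested genes were higher, which is 5.04%, and 199 were lower, which is 2.08%. The median log2 fold change of the higher genes was 2.77 (2.70 with the 26 genes that had no control counts held at their lower bound), 218 of them rose by at least 3 and 94 by at least 5 on the log2 scale. Among the lower genes the median was -1.85, and 11 fell by at least 3 on that scale. The higher genes together held 1.70% of the counts in the control samples and 14.4% at 1 h, and the lower genes went from 0.853% to 0.227%. At an FDR of at most 0.01 without the limit on size, 1409 genes (14.7%) were higher and 1080 (11.3%) lower, and the median over all tested genes was -0.03. Values after ± are standard errors for log2 fold changes and standard deviations over 3 samples for CPM. For a gene with few or no control counts the fitted log2 fold change rests on the prior count of the fit and its standard error can be too small.

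**Figure D1:**
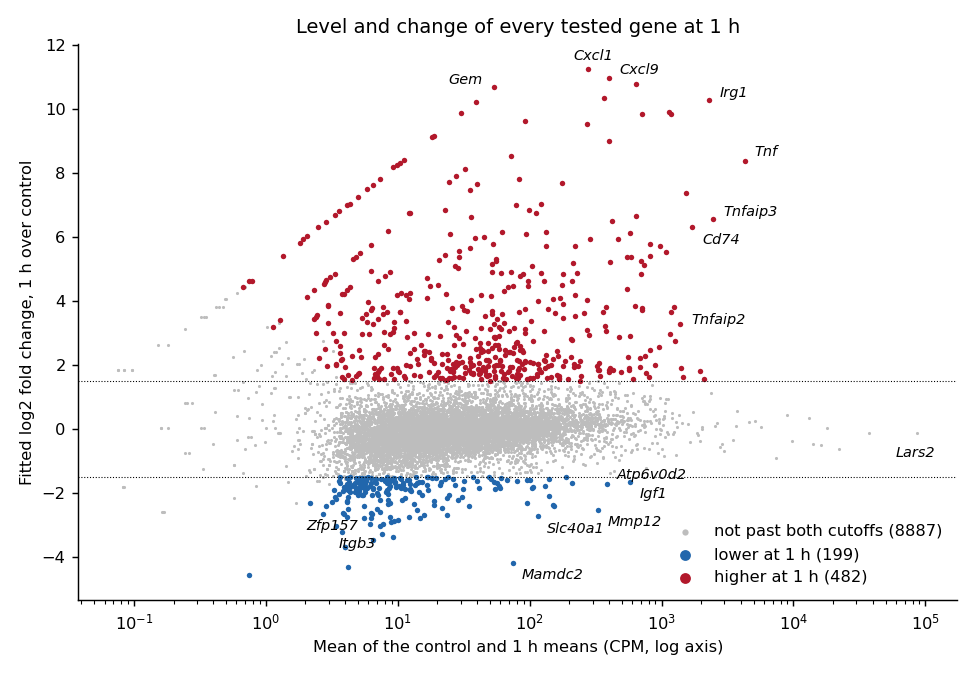
Each point is 1 of 9568 tested genes, with the mean of its control and 1 h levels (CPM, log axis) across and its fitted log2 fold change at 1 h up, and dotted lines mark 1.5 in each direction. The 482 higher genes (red) reach 11.23 at Cxcl1, the 199 lower genes (blue) reach down to -4.57 at 9530082P21Rik, and Lars2 at the far right, with 82722 CPM at 1 h, did not pass.

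Sequences are shown first for RNAs and promoters to which the values below refer. Of the 19 long noncoding RNAs and microRNA hosts listed, 11 could be tested and 1 was higher (2 without the first control sample), Mir155hg, the transcript from which miR-155 is cut. Mir155hg (chr16:84713023-84715245) had 0 counts in all 3 control samples and 66.4, 81.8 and 86.1 CPM at 1 h, at least 157-fold higher against the floor (log2 fold change 10.22 ± 0.49, FDR 1.39e-21). The counts on Mir221 rose from 2.32 ± 0.563 to 44.2 ± 4.25 CPM (log2 fold change 4.21 ± 0.29, FDR 4.34e-17) and those on Mir222 from 0.498 ± 0.495 to 15.6 ± 3.89 CPM (log2 fold change 4.78 ± 0.55, FDR 5.98e-10), and both are neighbours on the X chromosome and were picked out after their values were seen. The counts are of reads over these loci and do not measure the mature forms, which are printed here from RefSeq (GRCm38.p6) with the seed, bases 2 to 8, in capitals.
mmu-miR-155-5p: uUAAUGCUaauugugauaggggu
mmu-miR-221-3p: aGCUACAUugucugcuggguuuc
mmu-miR-222-3p: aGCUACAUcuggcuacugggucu
The sequences come from chr16:84714143-84714165, plus strand, from chrX:19146307-19146329, minus strand and from chrX:19146901-19146923, minus strand. The miR-221 and miR-222 arms share the seed GCUACAU, and miR-155 has UAAUGCU.

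Promoters of 17 higher genes, picked after their values were seen, were searched. Of these, 8 held all or part of a kappa B, GAS or ISRE match in the 150 bases before the start. In 1 of the 8, Socs3, only part of a GAS match lay within these bases. Another 4 held only another of the motifs below and 5 none. They are shown for 6 genes that were higher at 1 h and are known targets of either arm of the stimulus: the neutrophil chemokines Cxcl1 and Cxcl2, the NF-κB inhibitor Nfkbia, the transcription factor Irf1, the guanylate-binding protein Gbp2 and the T cell chemokine Cxcl9. Each is the run of 150 bases that ends just before the gene start in RefSeq GRCm38.p6, read 5′ to 3′ on the strand of the gene. Capitals mark matches, on either strand, to the kappa B motif bound by NF-κB, the AP-1 motif TGANTCA, the IFN-γ activation site GAS (TTCNNNGAA), the interferon-stimulated response element ISRE, the CArG box, the cyclic AMP response element TGACGTCA and, at the usual distance from the start, the TATA box TATAAA.
Cxcl1: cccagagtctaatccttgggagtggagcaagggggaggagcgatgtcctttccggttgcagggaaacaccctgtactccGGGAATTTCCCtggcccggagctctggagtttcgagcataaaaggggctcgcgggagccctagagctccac
Cxcl2: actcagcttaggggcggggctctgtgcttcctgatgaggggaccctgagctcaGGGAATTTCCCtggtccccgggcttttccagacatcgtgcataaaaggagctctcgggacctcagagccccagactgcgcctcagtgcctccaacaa
Nfkbia: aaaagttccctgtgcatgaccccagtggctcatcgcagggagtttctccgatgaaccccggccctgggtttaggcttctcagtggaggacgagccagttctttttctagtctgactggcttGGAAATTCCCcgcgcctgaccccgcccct
Irf1: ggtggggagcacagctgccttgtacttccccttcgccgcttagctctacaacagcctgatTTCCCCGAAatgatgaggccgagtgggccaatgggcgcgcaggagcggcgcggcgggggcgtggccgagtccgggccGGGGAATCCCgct
Gbp2: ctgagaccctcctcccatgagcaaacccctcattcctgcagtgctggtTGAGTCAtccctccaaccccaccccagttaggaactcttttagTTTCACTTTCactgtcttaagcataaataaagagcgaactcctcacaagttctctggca
Cxcl9: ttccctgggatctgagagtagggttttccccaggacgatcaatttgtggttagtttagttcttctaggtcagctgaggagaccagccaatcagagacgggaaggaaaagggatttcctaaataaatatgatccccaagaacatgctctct
They lie at chr5:90891095-90891244, plus strand (Cxcl1), chr5:90903749-90903898, plus strand (Cxcl2), chr12:55492648-55492797, minus strand (Nfkbia), chr11:53769864-53770013, plus strand (Irf1), chr3:142620513-142620662, plus strand (Gbp2) and chr5:92328080-92328229, minus strand (Cxcl9). Cxcl1 and Cxcl2 carry the same 11 letters, GGGAATTTCCC, in which a kappa B match on each strand overlaps the other. Nfkbia holds a kappa B match 29 to 20 bases before its start. In Irf1 a GAS match stands 90 to 82 bases and a kappa B match 13 to 4 bases before the start, and in Gbp2 an AP-1 and an ISRE match stand 102 to 96 and 59 to 50 bases before it. The run shown for Cxcl9 has none of the 7 motifs, which says only that these letters are not in this window. Over the 7761 tested genes with a RefSeq window of 250 bases before and 50 after the start, 5.18% held a kappa B match, 4.95% an AP-1 match, 6.92% a GAS match, 3.43% an ISRE match and 1.20% a TATA box. A window was found for only 77.2% of the higher and 78.4% of the lower genes, below the 80% set as a minimum, so the shares of motifs in these groups were not compared.

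Chemokines, the secreted proteins that draw leukocytes out of the blood, held the 3 largest fitted log2 fold changes of all tested genes, those of Cxcl1, Cxcl9 and Cxcl2. Of the CXC family, 9 were tested, of which 6 were higher and the other 3 did not pass, with a median log2 fold change of 6.47 (3.51 with genes without control counts at their bound). Among CC chemokines, 10 were tested, of which 8 were higher and the other 2 did not pass, with a median log2 fold change of 4.78 (4.25 at their bound). Cxcl1 (chr5:90891245-90893121), which attracts neutrophils, was at 0.495, 0 and 0 CPM in the control samples and 485, 542 and 646 CPM at 1 h (log2 fold change 11.23 ± 0.29, FDR 1.32e-29). With a single control count its ratio has a 95% counting interval of 607 to 133766. Its neighbour Cxcl2 (chr5:90903899-90905938) went from 0, 1.51 and 0.493 CPM to 1127, 1266 and 1416 CPM (log2 fold change 10.77 ± 0.32, FDR 7.63e-16). In both genes every sample at 1 h lay above every control sample, as it did, by any margin, for 24.3% of all tested genes. Cxcl9 (chr5:92321331-92328079), an IFN-γ-induced ligand of CXCR3 on T cells, was at 0, 0.505 and 0.493 CPM in the control samples and 851, 765 and 783 CPM at 1 h (log2 fold change 10.98 ± 0.26, FDR 3.21e-31). The other CXCR3 ligands followed, Cxcl10 rising from 0.165 ± 0.286 to 183 ± 28.0 CPM and Cxcl11, with 0 control counts, reaching 5.68 CPM (FDR 0.00326, and 0.0147 or 0.0248 with the first or the last sample at 1 h left out, which ends the call). Cxcl16 rose from 133 ± 14.4 to 512 ± 41.9 CPM, whereas Cxcl12 went from 10.3 to 6.56 CPM without passing (FDR 0.130).

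Ccl3 and Ccl4, chemokines that recruit monocytes and T cells, were already present in the control cells. Ccl4 stood at 36.6, 42.4 and 31.5 CPM in the control samples and 1616, 1735 and 2385 CPM at 1 h, 51.9 times higher (log2 fold change 5.70 ± 0.18, FDR 5.01e-17). Ccl3 rose from 27.7 ± 5.26 to 1146 ± 227 CPM, and Ccl2, the monocyte chemoattractant, from 4.63 ± 1.56 to 141 ± 32.5 CPM. Ccl5, which attracts T cells, went from 0.662 to 164 CPM, and its later means were 2506 CPM at 4 h, 4577 at 12 h and 5254 at 24 h. Ccl12 had 0 control counts and 5.07, 5.80 and 10.5 CPM at 1 h. Ccl22 passed at 5.57 CPM (FDR 0.00190) but not with the first or the second control sample left out (FDR 0.0120 and 0.0113). Ccl6 held 37.6 and 37.8 CPM. All 8 CC chemokines that were higher at 1 h had every 4 h sample above every 1 h sample, against 273 of all 482 higher genes.

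Cytokines and growth factors, the other secreted messengers, were also mostly higher. Of 31 tested, 19 were higher and 1 lower (2 without the first sample at 1 h), with a median of 3.88 (3.30 with bounds). Tnf (chr17:35199367-35202007), an early cytokine of the response to LPS, had the largest gain in mean CPM of all tested genes. It was at 26.2, 25.7 and 26.1 CPM in the control samples and 8109.6, 8361 and 9362 CPM at 1 h, a 331-fold rise (log2 fold change 8.37 ± 0.13, FDR 1.73e-43), with no overlap and little spread within either group. Both forms of interleukin-1 rose, Il1b from 0.990, 4.04 and 1.97 CPM to 2054, 2152 and 2606 CPM (log2 fold change 9.89 ± 0.20, FDR 2.99e-31) and Il1a from 1.98, 0.505 and 1.97 CPM to 1269.7, 1405 and 1563 CPM (log2 fold change 9.83 ± 0.22, FDR 5.43e-30). Their antagonist Il1rn rose with them, from 12.1 ± 3.22 to 349 ± 66.9 CPM, but less steeply (log2 fold change 4.85). Tnfsf9, the ligand of the costimulatory receptor 4-1BB, went from 0.990, 0 and 0.493 CPM to 639, 696 and 862 CPM (log2 fold change 10.35 ± 0.27, FDR 1.6e-25), a ratio with a counting interval of 508 to 7203. Ifnb1, the type I interferon made first after LPS, had 0 counts in the 3 control samples and 42.1, 60.9 and 79.2 CPM at 1 h, at least 122-fold higher, and its 4 h mean was 20.3 CPM.

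Other cytokines act on T cells or restrain inflammation. Il12b, the shared subunit of IL-12 and IL-23, rose from 0.332 CPM to 129, 129 and 177 CPM, and the subunit Il27 from 0 to 36.1 CPM. Il23a reached 22.2 CPM and Il6 12.9 CPM, both higher, while Il12a had no counts in any of the 6 samples. The anti-inflammatory Il10 rose from 0.168 to 48.6 CPM (log2 fold change 7.70). Il1rn, Il23a, Il6, Il12a and Il10 stand outside the rule for named genes and were chosen after their values were seen. The mean of Il12b was 2764 CPM at 4 h and that of Il27 2083 CPM. Igf1, a growth factor of resting macrophages, was the single member called lower. It was at 862, 878 and 910.5 CPM in the control samples and 272, 276 and 286 CPM at 1 h (log2 fold change -1.67 ± 0.10, FDR 3.63e-18). Vegfa (28.8 to 67.0 CPM), Csf1 (41.6 to 53.7 CPM) and Tgfb1 (67.2 to 57.1 CPM) had the highest CPM among those that did not pass.

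**Figure D2:**
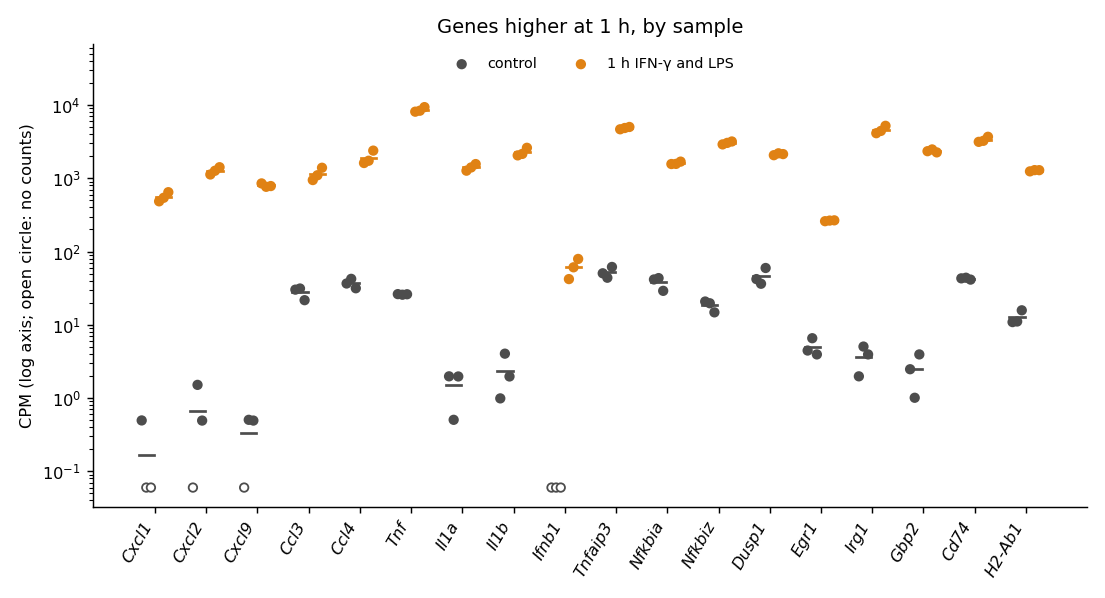
Each dot is the CPM (log axis) of 1 sample for 18 genes that were higher at 1 h, grey for the 3 control samples and orange for the 3 samples at 1 h, with a bar at the mean and open circles for samples without counts. In all 18 genes the orange dots sit above the grey ones, from Cxcl1 (0.165 to 557 CPM on average) to Tnf (26.0 to 8611 CPM).

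NF-κB subunits, their inhibitors and feedback genes were counted in 1 list. Of 29 tested subunits, inhibitors and feedback genes, 16 were higher and the other 13 did not pass, with a median of 1.97. Tnfaip3 (chr10:19000910-19015410), the ubiquitin-editing enzyme A20 that shuts NF-κB signalling down, went from 50.5, 43.9 and 61.6 CPM to 4665, 4856 and 5017 CPM (log2 fold change 6.54 ± 0.11, FDR 3.5e-41). Nfkbia, the inhibitor IκBα that holds NF-κB in the cytoplasm, rose from 41.6, 43.4 and 29.1 CPM to 1565, 1572 and 1688 CPM (log2 fold change 5.40 ± 0.11, FDR 1.1e-37). Nfkbiz, a nuclear cofactor of NF-κB needed for secondary genes such as Il6, rose from 20.8, 19.7 and 14.8 CPM to 2900.2, 3041 and 3179 CPM (log2 fold change 7.36 ± 0.12, FDR 1.34e-41). In these 3 genes the groups stood more than an order of magnitude apart. Traf1, Tnip3 and the inhibitor Nfkbie followed, from 1.67 ± 1.28 to 56.1 ± 2.46 CPM, from 15.1 ± 6.16 to 337 ± 17.7 CPM and from 5.98 ± 1.40 to 130.4 ± 8.66 CPM. Tnfaip2, a TNF-induced gene that was abundant before the stimulus, rose 9.59-fold, from 262 ± 3.38 to 2515 ± 234 CPM. Of the subunits themselves, Rel went from 13.1 ± 1.11 to 95.2 ± 10.7 CPM and Relb from 16.3 ± 1.29 to 98.9 ± 9.21 CPM, both called, and Rela (30.5 to 80.6 CPM, log2 fold change 1.41) and Nfkb1 (52.7 to 108 CPM, 1.03) stayed under 1.5. Ikbke and Ripk1 were at 63.4 and 80.9 CPM in the control samples and 80.9 and 59.0 CPM at 1 h and did not pass. Rel, Relb and Rela are named here after their values were seen.

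Among immediate-early transcription factors, 26 were tested, of which 14 were higher and the other 12 did not pass, with a median log2 fold change of 1.73. Csrnp1, an AXIN1-induced nuclear protein, led with 8.41, 10.1 and 8.87 CPM in the control samples and 782, 839 and 878 CPM at 1 h (log2 fold change 6.50 ± 0.14, FDR 8.25e-37). Egr1, a zinc finger factor that serum and stress induce within minutes, rose from 4.45, 6.56 and 3.94 CPM to 259.5, 265 and 267 CPM (log2 fold change 5.71 ± 0.17, FDR 4.67e-32), and its mean at 4 h was 0.736 CPM. Maff, a small MAF protein, rose from 2.66 ± 1.06 to 185 ± 16.0 CPM, and Ier2 from 19.1 ± 2.98 to 258 ± 2.60 CPM. Egr3 and the nuclear receptor Nr4a3 passed at low levels of 7.45 and 5.01 CPM. Junb, an AP-1 subunit, rose from 175 ± 6.48 to 2205 ± 84.8 CPM (log2 fold change 3.65), and Klf6, Klf2 and Myc were higher as well. The AP-1 members Fos, Jun and Atf3 did not pass. Fos was at 14.4, 11.1 and 25.1 CPM in the control samples and 47.6, 42.4 and 26.6 CPM at 1 h (log2 fold change 1.18 ± 0.24, FDR 0.000210), Jun at 97.0, 112 and 92.1 CPM and 192, 215 and 225 CPM (log2 fold change 1.07 ± 0.12, FDR 1.52e-10), and Atf3 at 288, 287 and 249 CPM and 343, 327 and 393 CPM (log2 fold change 0.37 ± 0.11, FDR 0.00512). In all 3 genes the lowest sample at 1 h lay above the highest control sample, by less than the cutoff on size. Of the 14 higher members, 11 had all 4 h samples below all 1 h samples, against 133 of all 482 higher genes. Junb, Klf6, Klf2, Myc and Fos are named here after their values were seen.

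Phosphatases that switch MAP kinases off form a further feedback group. Among dual-specificity phosphatases and Sprouty proteins, 14 were tested, of which 7 were higher and the other 7 did not pass, with a median log2 fold change of 1.56. Dusp1, which acts on p38 and JNK, rose from 42.1, 36.3 and 59.6 CPM to 2065, 2192 and 2139 CPM (log2 fold change 5.53 ± 0.16, FDR 1.93e-20), and Dusp2, a MAP kinase phosphatase of immune cells, from 5.94, 9.59 and 8.87 CPM to 432, 431 and 437 CPM (log2 fold change 5.73 ± 0.16, FDR 5.27e-33). Dusp5, Dusp4, Dusp8 and the inhibitor Spry1 were higher too, Dusp5 going from 1.49 ± 0.985 to 53.4 ± 5.59 CPM and Dusp4 from 29.3 ± 5.19 to 131 ± 13.3 CPM. Dusp3 (466 to 252 CPM, log2 fold change -0.89) and Dusp7 (91.1 to 44.9 CPM, -1.02) had all samples at 1 h below all control samples, without reaching the cutoff. The mean of Dusp1 was 112 CPM at 4 h, 138 at 12 h and 87.6 at 24 h. Gem, a small GTPase of the RGK family that stands in none of the lists, had 0 counts in the control samples and 92.8, 98.6 and 128 CPM at 1 h, at least 214-fold higher.

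Factors that destroy inflammatory mRNAs formed a smaller group, in which 19 were tested, of which 6 were higher and the other 13 did not pass, with a median log2 fold change of 0.23. Zfp36, tristetraprolin, which binds AU-rich elements of Tnf and other transcripts, rose from 52.7 ± 4.72 to 666 ± 79.4 CPM (log2 fold change 3.66 ± 0.16, FDR 1.2e-16). Zc3h12a, the ribonuclease Regnase-1, rose from 26.3 ± 2.82 to 144 ± 4.03 CPM, and its relative Zc3h12c from 31.5 ± 2.23 to 512 ± 31.0 CPM. The antiproliferative genes Btg1 and Btg2 rose from 55.0 ± 8.91 to 205 ± 6.66 CPM and from 35.8 ± 9.55 to 409 ± 26.5 CPM, and Zfp36l1 from 53.7 ± 4.47 to 159.6 ± 5.23 CPM. Zfp36l2 (129 to 124 CPM), a member of the same family, and the deadenylase scaffold Cnot1 (218 to 226 CPM) did not pass. Of the SOCS family and other cytokine pathway inhibitors, 12 were tested, of which 2 were higher and the other 10 did not pass, with a median log2 fold change of 0.20. Socs3, which blocks signalling by IL-6 family receptors, went from 0, 1.51 and 0.493 CPM to 559, 519 and 544 CPM (log2 fold change 9.53 ± 0.22, FDR 3.38e-36). Socs1, an inhibitor of IFN-γ signalling, held 1.33 and 1.22 CPM and is named here after its values were seen.

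The interferon-γ axis held more higher genes than any other list. Of 38 tested, 28 were higher and the other 10 did not pass, with a median of 2.59. Guanylate-binding proteins (GBPs) are GTPases that attack vacuoles holding microbes, and their genes led the list. Gbp2 (chr3:142620663-142638008) was at 2.47, 1.01 and 3.94 CPM in the control samples and 2343, 2476 and 2256 CPM at 1 h, 953 times higher (log2 fold change 9.85 ± 0.17, FDR 1.36e-41). Gbp5 rose from 1.98, 1.01 and 1.48 CPM to 751, 795 and 852 CPM, 537 times higher, and Gbp4, with 0 control counts, reached 37.4 CPM, at least 75.2-fold higher. The immunity-related GTPases Iigp1 and Tgtp2 rose from 0.164 to 64.9 CPM and from 0 to 20.8 CPM. These GTPase families hold near-identical copies, so counts of single members are uncertain where reads could not be placed. The costimulatory receptor Cd40 rose from 0.495, 2.52 and 1.97 CPM to 332, 309 and 412 CPM (log2 fold change 7.67 ± 0.21, FDR 1.43e-32). Among the transcription factors of the pathway, Irf1 went from 40.8 ± 4.87 to 1426 ± 77.1 CPM (log2 fold change 5.13), while Stat2 (24.5 to 14.2 CPM) and Irf8 (88.5 to 65.9 CPM) did not pass. Both receptor chains were present before the stimulus, Ifngr1 at 163 CPM and Ifngr2 at 195 CPM, and neither passed. Of the 28 higher genes, 25 had all 4 h samples above all 1 h samples, against 273 of all 482 higher genes. Irf1, Stat2 and Irf8 are named here after their values were seen.

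Antigen presentation genes, listed after their values were seen, were mostly higher at 1 h. Of MHC genes, 20 were tested, of which 16 were higher and the other 4 did not pass, with a median log2 fold change of 3.24. Ciita, the master transactivator of MHC class II, rose from 0.495, 1.01 and 1.97 CPM to 50.7, 56.3 and 63.7 CPM (log2 fold change 5.54 ± 0.45, FDR 1.54e-09). Cd74, the invariant chain that guides class II molecules, went from 43.1, 43.9 and 41.4 CPM to 3141, 3246 and 3684 CPM (log2 fold change 6.29 ± 0.11, FDR 3.5e-41), the fourth largest gain in mean CPM of all tested genes. The class II chains H2-Aa, H2-Ab1 and H2-Eb1 rose 69.3-fold, 101-fold and 111-fold, H2-Ab1 from 10.9, 11.1 and 15.8 CPM to 1243, 1292 and 1290.1 CPM. The class I gene H2-D1 (513 to 935 CPM, log2 fold change 0.87) stayed below the cutoff. In the machinery that cuts and loads peptides for class I, also listed after its values were seen, 10 of 10 tested genes were higher, among them the transporter Tap1 (from 21.1 ± 1.26 to 139 ± 6.78 CPM), the immunoproteasome subunits Psmb8 and Psmb9 (from 7.79 ± 1.86 to 39.5 ± 7.81 CPM and from 17.7 ± 1.08 to 100.3 ± 7.29 CPM) and the proteasome activators Psme1 and Psme2 (from 45.1 ± 2.36 to 222 ± 9.21 CPM and from 72.0 ± 4.64 to 343 ± 19.4 CPM). The level of Cd74 was 4682 CPM at 4 h, 3960.0 at 12 h and 3246 at 24 h.

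Genes of the type I interferon response, most of them antiviral, were listed apart from those of the IFN-γ axis. Of 37 tested, 19 were higher, with a median of 2.01 (1.87 with bounds). Rsad2, the antiviral enzyme viperin, went from 0.990, 3.53 and 0.985 CPM to 214, 235 and 283 CPM (log2 fold change 7.02 ± 0.24, FDR 4.75e-24), and Ifit1, which binds viral RNA, from 0.495, 3.03 and 1.48 CPM to 191, 190.3 and 211 CPM (log2 fold change 6.84 ± 0.24, FDR 9.83e-26). Isg15, a ubiquitin-like modifier, rose from 1.65 ± 0.558 to 121 ± 20.4 CPM. Oasl1 and Ifi44 had 0 control counts and reached 19.7 and 9.94 CPM. All 19 higher members had every 4 h sample above every 1 h sample (273 of 482 over all higher genes), and the means at 4 h were 5658 CPM for Rsad2 and 3874 CPM for Ifit1. Oas3 (27.9 to 60.6 CPM) and Trim30a (32.5 to 44.7 CPM) did not pass.

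**Figure D3:**
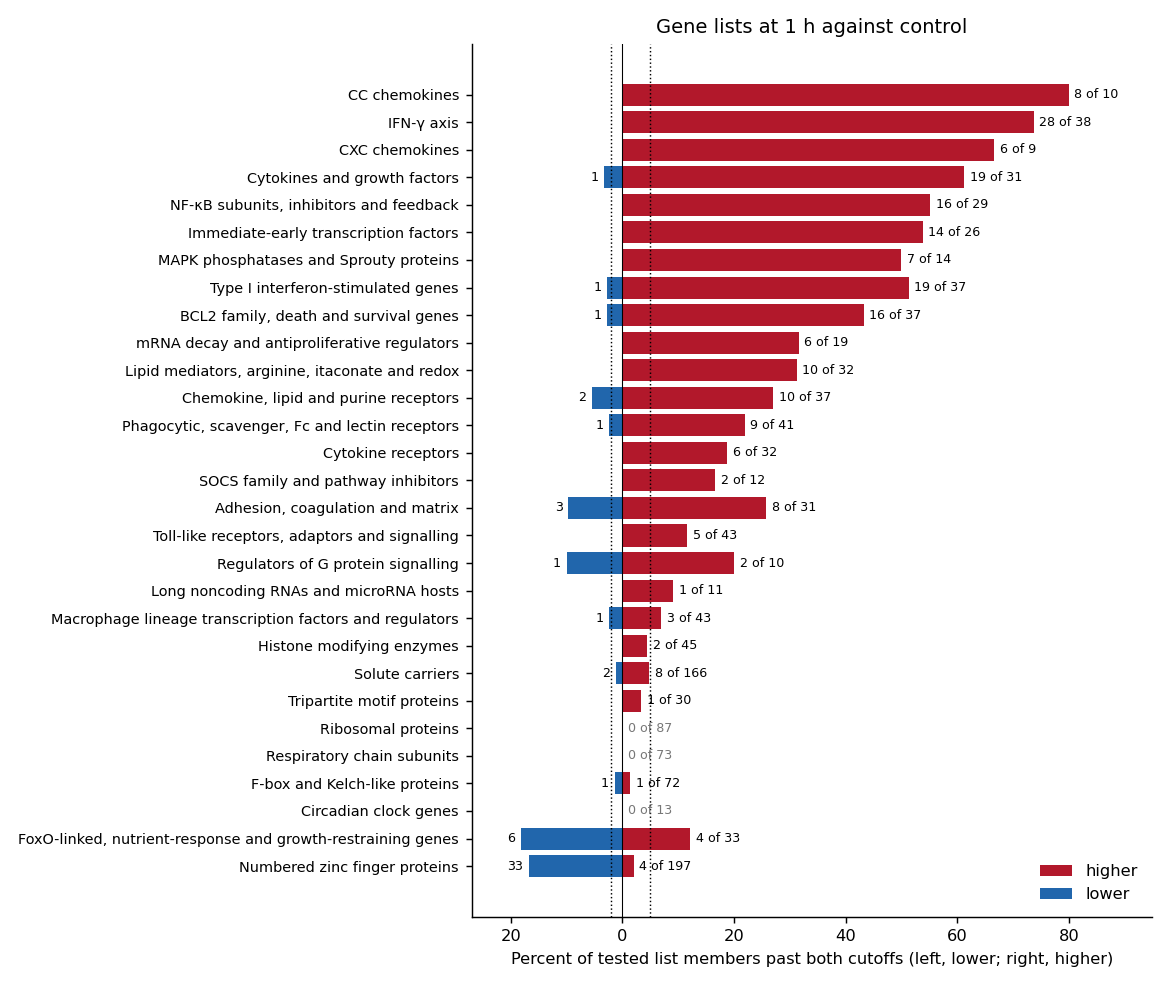
Bars give, for 29 gene lists, the percent of tested members that were higher (red, right) or lower (blue, left) at 1 h, with counts beside them and lists ordered by the difference of both percents, and dotted lines mark the percents over all tested genes (5.04% and 2.08%). CC chemokines (8 of 10) and the IFN-γ axis (28 of 38) stand at the top, and numbered zinc finger proteins (4 higher and 33 lower of 197) at the bottom.

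Metabolic enzymes and carriers included the third largest gain in mean CPM. Of the list on lipid mediators, arginine, itaconate and redox balance, 32 were tested, of which 10 were higher and the other 22 did not pass, with a median log2 fold change of 1.22. Irg1, the enzyme Acod1 that makes itaconate, had the largest log2 fold change of the list. It was at 1.98, 5.05 and 3.94 CPM in the control samples and 4124, 4432 and 5200.2 CPM at 1 h, 1254 times higher (log2 fold change 10.27 ± 0.17, FDR 2.12e-41), and its mean at 4 h was 14307 CPM. Ptgs2, cyclooxygenase 2 of prostaglandin synthesis, went from 17.8, 16.6 and 29.1 CPM to 739, 751 and 873 CPM (log2 fold change 5.21 ± 0.21, FDR 1.92e-13). The cystine carrier Slc7a11 and the arginine carrier Slc7a2 rose from 30.0 ± 2.63 to 331 ± 3.28 CPM and from 14.9 ± 2.20 to 124 ± 1.46 CPM, and the sugar carrier Slc2a6 from 10.1 ± 2.24 to 249 ± 13.1 CPM. Nos2, the inducible nitric oxide synthase a hallmark of classical activation, had no counts in the control samples and 1.01, 0.580 and 1.37 CPM at 1 h and did not pass (FDR 0.302), and it is named here after its values were seen. Cybb of the NADPH oxidase (1509 to 3261 CPM, log2 fold change 1.11) and the redox factor Nfe2l2 (283 to 599 CPM, 1.08) had every sample at 1 h above every control sample, by less than the cutoff. Ldha, a glycolytic enzyme, was at 394 and 488 CPM.

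Genes that promote and genes that prevent cell death were counted together. Of the BCL2 family, death and survival list, 37 were tested, of which 16 were higher and 1 lower, with a median log2 fold change of 0.92, the lower count being 2 without the second control sample. Pim1, a survival kinase, rose from 48.5, 38.8 and 65.5 CPM to 672, 659 and 808 CPM (log2 fold change 3.80 ± 0.12, FDR 8.63e-30), and Cflar, the inhibitor of caspase-8 called c-FLIP, from 77.7, 77.2 and 86.7 CPM to 653, 664 and 698 CPM (log2 fold change 3.06 ± 0.10, FDR 8.15e-30). Ier3 and Phlda1 rose from 3.96 ± 2.94 to 57.4 ± 7.57 CPM and from 1.32 ± 1.51 to 23.0 ± 0.697 CPM. Bcl2a1a and Bcl2a1d, copies of the antiapoptotic A1 gene, rose from 1.15 ± 1.13 to 23.5 ± 5.10 CPM and from 7.97 ± 2.69 to 94.9 ± 20.1 CPM, with reads that near-identical copies could share. The proapoptotic Bcl2l11, named after its values were seen, rose too, from 119.6 to 371 CPM, so members of opposite action moved the same way. Gadd45g, a growth arrest gene, fell from 11.6 ± 2.43 to 2.67 ± 0.872 CPM, while its relatives Gadd45a and Gadd45b, named after their values were seen, were higher. Mcl1 went from 564 to 1068 CPM (log2 fold change 0.92) without passing.

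Receptors were described in 4 lists, to be read against 5.04% higher and 2.08% lower over all tested genes. Of Toll-like receptors, adaptors and signalling genes, 43 were tested, of which 5 were higher and the other 38 did not pass, with a median log2 fold change of 0.17. Tlr2, the receptor for bacterial lipoproteins, rose from 71.8, 77.7 and 96.1 CPM to 1159, 992 and 1373 CPM (log2 fold change 3.84 ± 0.12, FDR 4.52e-27), and the LPS co-receptor Cd14 from 248, 256 and 292 CPM to 1974, 2018 and 2225 CPM (log2 fold change 2.97 ± 0.10, FDR 9.91e-30). Nod2, a sensor of peptidoglycan, rose from 4.32 to 43.5 CPM, while Tlr13 (996 to 1073 CPM) and Tlr7 (259.9 to 247 CPM) did not pass. Among chemokine, lipid and purine receptors, 37 were tested, of which 10 were higher and 2 lower, with a median log2 fold change of 0.15. Ccrl2, an atypical chemokine receptor, went from 26.7, 24.2 and 36.5 CPM to 1480.0, 1576 and 1769 CPM (log2 fold change 5.78 ± 0.13, FDR 2.31e-36), and Gpr84, a receptor for fatty acids, rose from 0.997 ± 0.864 to 44.8 ± 9.84 CPM. The sphingosine receptor S1pr2 fell from 101 ± 8.18 to 33.2 ± 0.921 CPM (log2 fold change -1.61 ± 0.14, FDR 1.41e-13). The lysophosphatidic acid receptor Lpar6 fell from 72.2 ± 15.2 to 25.7 ± 4.77 CPM, at the edge of the cutoff. Lpar6 missed the cutoff without the third control sample or the third sample at 1 h. It also did so by DESeq2 (log2 fold change -1.48) and with only the 6 samples in the fit (-1.49), among other settings. By DESeq2 or with only the 6 samples, 1 of these receptors was lower. Of cytokine receptors, 32 were tested, of which 6 were higher and the other 26 did not pass, with a median log2 fold change of 0.33. Without the third sample at 1 h 3 were higher, and 1 when the cutoff itself was the null hypothesis. Il2rg, the common gamma chain, rose from 17.2 ± 2.22 to 76.1 ± 17.3 CPM. Csf1r, the receptor for M-CSF, held 615 and 654 CPM. Of phagocytic, scavenger, Fc and lectin receptors, 41 were tested, of which 9 were higher and 1 lower, with a median log2 fold change of 0.19, the lower count being 0 without the second control sample or the first at 1 h and 2 without the third at 1 h. Clec4e, the glycolipid receptor Mincle, rose from 8.91, 7.06 and 11.8 CPM to 522, 560.5 and 623 CPM (log2 fold change 5.93 ± 0.15, FDR 4.27e-34), Cd83 from 47.9 ± 1.76 to 1358 ± 46.2 CPM and the costimulatory Cd86 from 7.45 ± 1.93 to 96.3 ± 7.49 CPM, while Sirpa, Trem2 and Cd36 did not pass.

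Adhesion, coagulation and matrix genes moved in both directions. Of these, 31 were tested, of which 8 were higher and 3 lower, with a median log2 fold change of 0.92. Icam1, the ligand of leukocyte integrins, went from 33.6, 36.3 and 39.4 CPM to 1280.3, 1271 and 1566 CPM (log2 fold change 5.23 ± 0.11, FDR 3.16e-37). The collagenase Mmp13 rose from 6.13 to 122 CPM, and F3, tissue factor, which starts coagulation, from 1.66 ± 0.747 to 17.1 ± 6.20 CPM. Thbd, thrombomodulin, which restrains coagulation, fell from 12.4, 13.1 and 7.39 CPM to 1.01, 1.74 and 2.29 CPM (log2 fold change -2.64 ± 0.44, FDR 2.46e-06). The elastase Mmp12 had the second largest loss in mean CPM among called genes. It stood at 587, 645 and 473 CPM in the control samples and 82.1, 106 and 104 CPM at 1 h, 5.85 times lower (log2 fold change -2.55 ± 0.11, FDR 9.07e-25), with no overlap. Spp1, osteopontin, held 2491 and 2791 CPM.

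On the list of histone modifying enzymes, 45 genes were tested and 2 were higher, which is 4.44% against 5.04% of all tested genes. They were Kdm6b, a demethylase of histone H3 lysine 27 (from 3.31 ± 0.546 to 101 ± 7.94 CPM, log2 fold change 4.90), and Prdm1, the repressor Blimp-1 (from 37.9 ± 3.16 to 163 ± 13.7 CPM, 2.10). Of macrophage lineage transcription factors and regulators, 43 were tested, of which 3 were higher and 1 lower, with a median log2 fold change of 0.12. These are 6.98% and 2.33%, against 5.04% and 2.08% of all tested genes. Tfec and Ets2 rose from 7.29 ± 1.40 to 84.4 ± 8.28 CPM and from 22.2 ± 3.23 to 96.4 ± 24.9 CPM, and the inhibitor of differentiation Id1 fell from 20.7 ± 3.72 to 6.20 ± 1.02 CPM. Among 13 tested clock genes, which keep daily rhythms, 0 passed in either direction by edgeR or by DESeq2. At an unadjusted p under 0.05 of the quasi-likelihood test, 1 was higher and 5 lower, against 2144 and 2057 of all 9568 tested genes. At an FDR of at most 0.01 without the limit on size, 1 was higher and 4 lower, against 1409 and 1080 of all. Of 87 tested ribosomal protein genes, 0 passed by either tool (log2 fold changes -0.85 to 0.79), with 35 higher and 2 lower at that unadjusted p. At an FDR of at most 0.01 without the limit on size, 12 were higher and 1 lower. Of 73 tested respiratory chain genes, 0 passed by either tool (-0.23 to 0.75), with 30 higher and 0 lower at that p, and 13 higher and 0 lower at that FDR.

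Falls were smaller than rises, and the steepest among genes of at least 10 CPM began with Mamdc2. This gene codes for a protein with MAM domains. It was at 131, 147 and 145 CPM in the control samples and 8.11, 5.80 and 8.70 CPM at 1 h, 18.7 times lower (log2 fold change -4.20 ± 0.19, FDR 2.75e-24), and its mean was 3.81 CPM at 4 h, 0.540 at 12 h and 0.409 at 24 h. Itgb3, the integrin β3 chain, fell from 16.3, 16.6 and 17.2 CPM to 1.52, 1.74 and 1.37 CPM (log2 fold change -3.40 ± 0.39, FDR 4.18e-10), and Epas1, the hypoxia-inducible factor HIF-2α, from 14.4, 18.2 and 20.2 CPM to 2.53, 2.90 and 1.83 CPM (log2 fold change -2.85 ± 0.36, FDR 5.16e-09). Zswim3 (from 12.1 ± 1.99 to 1.01 ± 0.477 CPM), Ccdc142 (from 11.1 ± 0.765 to 1.29 ± 0.889 CPM), Plscr4, a phospholipid scramblase (from 15.8 ± 1.24 to 1.94 ± 1.32 CPM), and Zfyve28 (from 16.5 ± 5.84 to 2.16 ± 0.947 CPM) complete the steepest falls beside 3 zinc finger genes. In all of them the highest sample at 1 h lay below the lowest control sample, as it did for 23.8% of all tested genes.

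Among called genes, the largest losses in mean CPM after those of Igf1 and Mmp12 began with Atp6v0d2 and Gas6. Atp6v0d2, a subunit of the vacuolar proton pump, fell from 563, 584 and 645 CPM to 183, 168 and 186 CPM (log2 fold change -1.73 ± 0.11, FDR 3.61e-19), and Gas6, the ligand of the receptors that clear dying cells, from 323, 323 and 313 CPM to 99.3, 92.8 and 104 CPM (log2 fold change -1.69 ± 0.11, FDR 5.48e-18). Emp1, a membrane protein, fell from 257 ± 5.71 to 48.3 ± 0.811 CPM, the receptor Cd300lb from 255 ± 25.2 to 48.5 ± 4.98 CPM and the sorting receptor Sort1 from 227 ± 23.2 to 52.6 ± 5.73 CPM. Dhrs3, a retinaldehyde reductase, fell from 279 ± 16.4 to 97.4 ± 4.63 CPM at a log2 fold change of -1.52, and missed the cutoff with the third control sample (-1.48) or the first sample at 1 h (-1.48) left out. The later means of Cd300lb were 1.24 CPM at 4 h, 11.9 at 12 h and 10.5 at 24 h. Slc40a1, the iron exporter ferroportin, went from 203, 213 and 189.7 CPM to 26.9, 29.0 and 34.3 CPM (log2 fold change -2.74 ± 0.12, FDR 4.13e-24). Of 166 solute carriers tested, it was 1 of 2 that were lower (1.20%, against 2.08% of all tested genes). Another 8 were higher (4.82%, against 5.04% of all), among them Slc25a37, which brings iron into mitochondria (from 13.6 ± 3.46 to 72.0 ± 4.41 CPM). Without the third sample at 1 h, 5 solute carriers were lower and 7 higher.

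**Figure D4:**
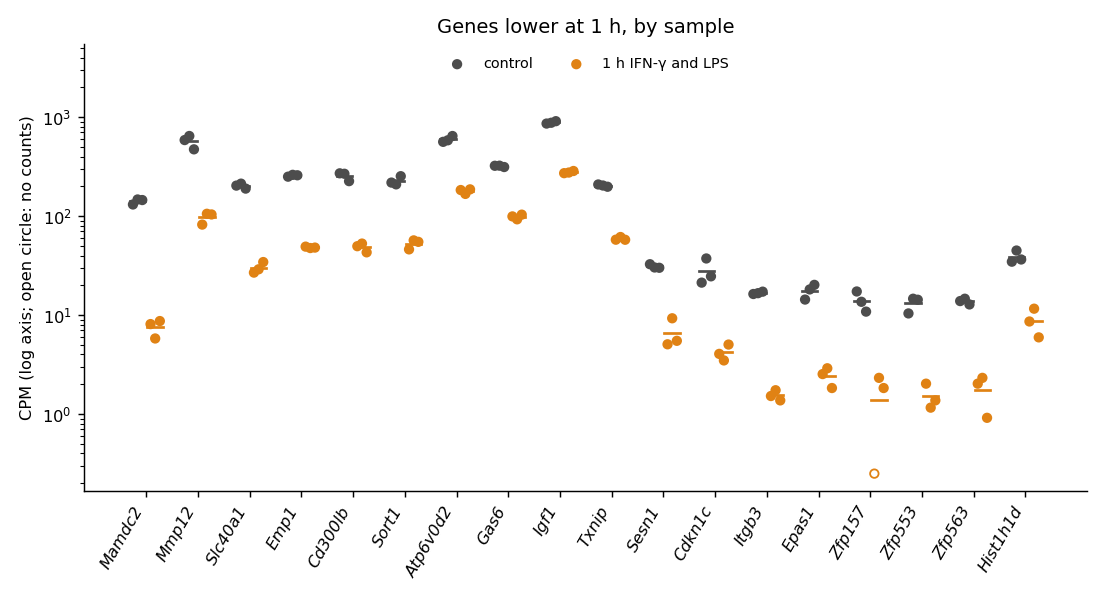
Each dot is the CPM (log axis) of 1 sample for 18 genes that were lower at 1 h, grey for the 3 control samples and orange for the 3 samples at 1 h, with a bar at the mean and an open circle for a sample without counts. In all 18 genes the orange dots sit below the grey ones, with means from 883 to 278 CPM for Igf1 and from 13.9 to 1.38 CPM for Zfp157.

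Genes that restrain growth or answer to nutrients moved in both directions. Of the list of FoxO-linked, nutrient-response and growth-restraining genes, 33 were tested, of which 4 were higher and 6 lower, with a median log2 fold change of -0.23, and 18.2% were lower. Txnip, which inhibits thioredoxin and glucose uptake, was at 209, 204 and 198 CPM in the control samples and 57.8, 61.5 and 57.7 CPM at 1 h (log2 fold change -1.79 ± 0.12, FDR 4.42e-18). The stress-induced Sesn1 fell from 32.7, 30.3 and 30.1 CPM to 5.07, 9.28 and 5.50 CPM (log2 fold change -2.25 ± 0.24, FDR 4.76e-11) and the cell cycle inhibitor Cdkn1c from 21.3, 37.3 and 24.6 CPM to 4.05, 3.48 and 5.04 CPM (log2 fold change -2.69 ± 0.31, FDR 6.25e-10). Arrdc3 and Tsc22d3, a glucocorticoid-induced gene, fell from 39.3 ± 3.17 to 9.55 ± 2.76 CPM and from 91.2 ± 10.1 to 26.4 ± 1.84 CPM. Mxd4, a partner that opposes MYC, fell from 25.2 ± 4.33 to 8.88 ± 1.16 CPM, but its log2 fold change lay at the cutoff. Mxd4 missed the cutoff without the first control sample (-1.35) or the first sample at 1 h (-1.39). It also did so by DESeq2 (-1.49) and with only the 6 samples in the fit (-1.49), among other settings. By DESeq2 or with only the 6 samples, 5 genes of the list were lower. Against these falls, the cell cycle inhibitor Cdkn1a rose from 23.3, 24.2 and 23.6 CPM to 267, 272 and 329 CPM (log2 fold change 3.61 ± 0.13, FDR 1.87e-28), and Trib1, Irs2 and Arrdc4 rose from 15.4 ± 0.676 to 94.7 ± 10.6 CPM, from 34.5 ± 2.22 to 149 ± 13.5 CPM and from 14.7 ± 3.43 to 59.1 ± 9.10 CPM.

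Numbered zinc finger proteins, many of them DNA-binding repressors, held the most lower genes of any list. Of 336 in the files, 197 could be tested, 33 were lower, which is 16.8% against 2.08% of all tested genes, and 4 were higher. Their median log2 fold change was -0.72, and 76 were lower and 12 higher at an FDR of at most 0.01 without the limit on size. All samples at 1 h lay below all control samples in 108 of them and above in 18. Zfp157 was at 17.3, 13.6 and 10.8 CPM in the control samples and 0, 2.32 and 1.83 CPM at 1 h (log2 fold change -3.29 ± 0.44, FDR 2.09e-08). Zfp553 went from 10.4, 14.6 and 14.3 CPM to 2.03, 1.16 and 1.37 CPM (log2 fold change -3.04 ± 0.40, FDR 1.37e-08), and Zfp563 from 13.9, 14.6 and 12.8 CPM to 2.03, 2.32 and 0.916 CPM (log2 fold change -2.97 ± 0.37, FDR 5.04e-09). At a lower level still, Zfp128 fell from 7.45 ± 1.72 to 0.515 ± 0.0615 CPM, Zfp189 from 9.77 ± 1.14 to 1.42 ± 0.784 CPM and Zfp763 from 6.81 ± 4.35 to 0.973 ± 0.745 CPM. Levels this low rest on few reads, those of Zfp157 on counts of 35, 27 and 22 in the control samples and 0, 4 and 4 at 1 h. When every sample had to hold 10 counts or more, a filter that itself removes genes that fell, 3 of 117 were lower and 3 higher. The count of lower members was 29 with DESeq2, 25 to 35 with 1 sample left out, and 4, against 3 higher, when the cutoff itself was the null hypothesis. The 4 that rose were Zfp558 (from 0.999 ± 0.510 to 14.5 ± 2.87 CPM), Zfp131 (from 20.1 ± 1.47 to 109 ± 16.2 CPM), Zfp719 (from 10.3 ± 4.63 to 42.3 ± 7.82 CPM) and Zfp263 (from 45.8 ± 4.89 to 185 ± 19.5 CPM). Of the 33 lower members, 12 had all 4 h samples above all 1 h samples and 1 had them all below. The members with the highest CPM that did not pass, Zfp704, Zfp710 and Zfp871, had log2 fold changes of -0.73, -0.48 and -0.53.

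Of regulators of G protein signalling, 10 were tested, of which 2 were higher and 1 lower, with a median log2 fold change of 0.10. These are 20% and 10%, against 5.04% and 2.08% of all tested genes. Rgs1 rose from 114 ± 18.2 to 837 ± 53.7 CPM and Rgs18 fell from 23.1 ± 6.52 to 5.70 ± 1.44 CPM. Of tripartite motif proteins, 30 were tested, of which 1 was higher and the other 29 did not pass, with a median log2 fold change of -0.24. The share of higher members, 3.33%, was below the 5.04% of all tested genes. Of F-box and Kelch-like proteins, 72 were tested, of which 1 was higher and 1 lower, with a median log2 fold change of -0.27. Each is 1.39%, below the 5.04% higher and 2.08% lower of all tested genes. The lower one, Klhl6, lost its call without the first or the third control sample. It also lost it without the second or the third sample at 1 h, by DESeq2, and with only the 6 samples in the fit.

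Genes called in either direction had shorter spans than the tested genes as a whole. A RefSeq span was found for 100% of the higher and of the lower genes and 99.8% of all tested genes. The median span was 16.8 kb for higher genes, 14.8 kb for lower genes and 23.7 kb for all, and the median number of exons 7, 5 and 9. Spans under 10 kb were held by 36.5% of higher, 37.2% of lower and 24.3% of all genes, and spans over 100 kb by 5.60%, 10.1% and 11.7%. Read the other way, 7.59% of tested genes under 10 kb were higher, 4.97% of those of 10 to 50 kb, 3.22% of those of 50 to 100 kb and 2.42% of those over 100 kb. Spans were described without a test.

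The libraries keep strand, and reads opposite to genes were tested apart. A small share of sense reads can land on the opposite strand, so antisense counts are to be read beside the sense counts. Of 586 genes with enough antisense counts, 80 were higher at 1 h, which is 13.7%, and 12 were lower, which is 2.05%. The antisense reads at Mir6381 lay on the strand of Gbp2 and those at Gm14023 on the strand of Il1a, both genes that rose.

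Levels at later times, which share the controls of the 1 h comparison, are given without a test. Of the 482 higher genes, 153 had their highest mean of the course at 1 h. All 4 h samples lay below all 1 h samples in 133, above in 273, and overlapped them in 76. Egr1, Dusp1, Tnfsf9 and Nfkbiz belonged to the first kind, with means at 1 h and 4 h of 264 and 0.736, 2132 and 112, 732 and 173, and 3040.1 and 1085 CPM. Gbp5, Rsad2 and Il1b had 1 h means of 799, 244 and 2271 CPM and 4 h means of 5440.3, 5658 and 6619 CPM. Of the 199 lower genes, 81 had their lowest mean at 1 h, 48 had all 4 h samples below and 39 all 4 h samples above all 1 h samples, and 112 overlapped. Mamdc2 and Igf1 had 24 h means of 0.409 and 69.6 CPM, while Zswim3 and Zfp157 had means of 9.77 and 8.17 CPM there, against control means of 12.1 and 13.9 CPM.

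**Figure D5:**
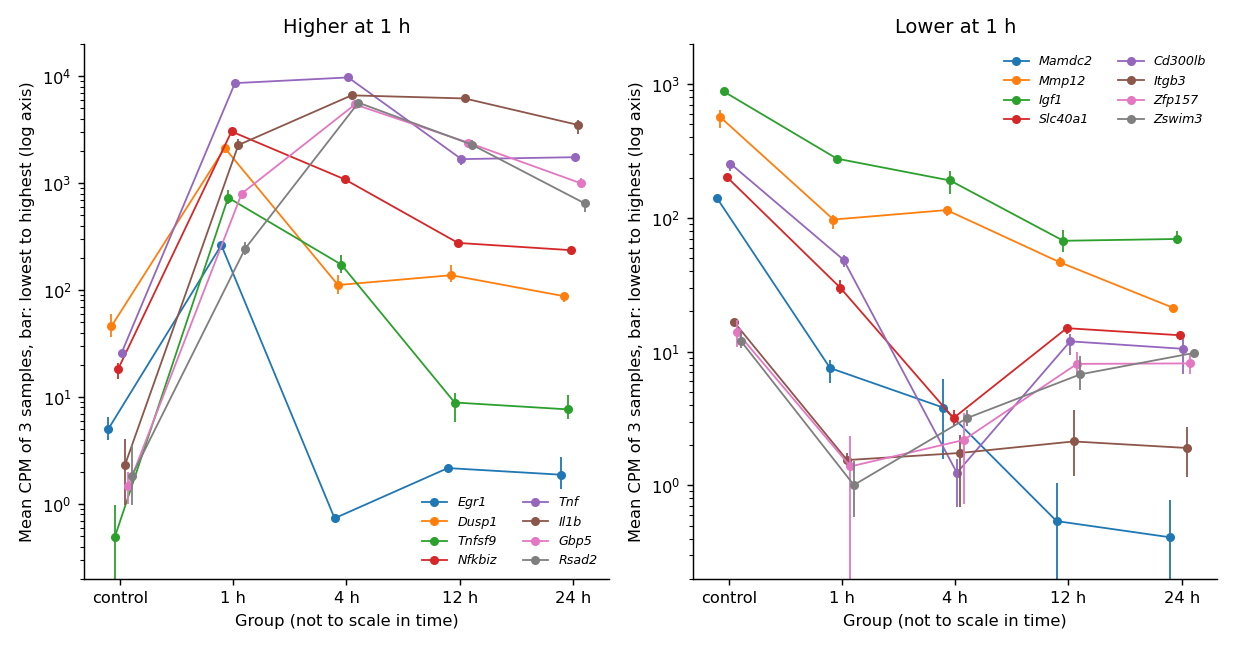
Mean CPM (log axis) of 3 samples in the control, 1, 4, 12 and 24 h groups for 8 genes higher and 8 genes lower at 1 h, with bars from the lowest to the highest sample and a bar that leaves the bottom for a sample without counts. Egr1 and Dusp1 peak at 1 h (264 and 2132 CPM), Gbp5 and Rsad2 at 4 h (5440.3 and 5658 CPM), and the lower genes part into those that stay low (Mamdc2) and those back at 9.77 CPM at 24 h (Zswim3).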

How the data were processed

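Libraries were made from RNA depleted of ribosomal RNA with a directional kit, although the molecule is labelled polyA RNA. The authors deposited whole-number counts per gene for each sample. Per the labels and the study's methods they ran CASAVA 1.8.2 and Trimmomatic 0.33, then aligned reads to mm10 with STAR 2.5.1, and their processing notes also name DESeq2. The gene annotation release is not given in the sources used here. Sense-strand counts were used, without Rn45s and the rows for reads outside genes, which leaves 24410 of 24411 genes. In edgeR 4.0.16 (R 4.3.3), 15 BMDM samples (control, 1, 4, 12 and 24 h, 10 residual degrees of freedom) were fitted by group after filterByExpr and TMM scaling, and 1 h was compared with control by the quasi-likelihood test. Counting intervals are exact at 95% and cover counting error only. DESeq2 1.42.0 was an alternative, and the code was tested on simulated data. Groups follow the sample labels. A few genes and 1 list are not reported here. The comparison, the 30 gene lists and 6 marker lists were chosen with earlier results of these data known, and 5 further lists after their values were seen. Genes are named by rule: the 10 largest changes each way at 10 CPM or more without overlap, the 8 largest gains and losses, and per list up to 6 called each way at 5 CPM or more with the 3 most abundant not called. Other named genes are said to be chosen after their values were seen. Replicates of a group differed by more than sampling noise, and same-numbered samples did not deviate together (r = 0.00547, 0.000566 and 0.0312).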

Additional observations from a re-analysis of the deposited data

Results flagged for a closer look

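Counts on the strand opposite to a gene lie outside the sense counts of that gene compared above. Of 586 genes with enough antisense counts to test, 80 (13.7%) were higher and 12 (2.05%) lower at 1 h by edgeR's quasi-likelihood test with the same cutoffs. Antisense reads at Mir6381, which lies on the strand opposite to Gbp2, went from 0.165 ± 0.286 to 177 ± 9.64 CPM, and those at Gm14023, opposite to Il1a, from 0.658 ± 0.752 to 424.5 ± 42.1 CPM. At Tnf, which has no listed gene opposite to it, they went from 0 in all 3 control samples to 43.3 ± 2.96 CPM, 0.499% of the reads of both strands. Antisense shares were 0.297% at Tnfaip3 and 0.342% at Dusp1, also higher in sense counts, and 0.231% at Ctsb and 0.217% at Lyz2, which did not pass. A small share of sense reads can land on the other strand, and its part in the Tnf count was not tested. The signals at Mir6381, Gm14023 and Tnf are listed because they appear above the control level in antisense counts. The comparison did not use these counts as such. The reads at Mir6381 and Gm14023 fall on the sense strand of 2 genes that were themselves higher, Gbp2 and Il1a. Where they lie on exons of these genes they can be the same reads as their sense counts, so they are not a separate signal. How many do was not tested. The largest falls were at Lsr (6.81 to 0.305 CPM), Ccdc127 (35.7 to 4.64 CPM, opposite to Lrrc14b) and Bsn (7.30 to 1.46 CPM). Of the called genes, 40 of the 80 higher and 12 of the 12 lower had over 5% of their reads on the antisense strand, and 38 of the 80 were also higher in sense counts.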

How the results depend on the processing

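Most settings left the number of called genes near 482 higher and 199 lower, between 441 and 534 higher and between 155 and 249 lower. The exceptions were a filter of at least 10 counts in every sample, which left 270 and 60 and removes by construction genes near 0 in either group, and a test against the cutoff of 1.5 itself, which left 309 and 29. With 1 sample left out in turn the counts were 473 to 493 and 190 to 208, and 434 and 113 of the calls held in all 6 such fits. The replicate block gave 487 and 200, and antisense calls stayed at 92, but samples of equal number did not deviate together and not every sample correlated best with its own number, so the numbers were not taken as a pairing. Antisense calls were 53 with only the 6 samples in the fit, 52 among genes with over 5% antisense reads and 88 to 103 with 1 sample left out. Of 291 named genes 0 changed direction by edgeR or DESeq2, and 55 lost their call in the test against the cutoff and at most 7 under any other setting among the named genes it tested, which were 194 under the 10-count filter and 281 with only the 6 samples. Depth limits genes at or under about 10 reads per sample, where many of the numbered zinc finger proteins lie.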

Other observations

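Further gene groups, picked out after their values were seen, moved in both directions at 1 h. Replication-dependent histone genes, which supply histones during DNA synthesis and whose transcripts mostly lack a poly(A) tail, were lower or did not pass. Of 45 tested, 9 were lower, which is 20% against 2.08% of all tested genes. The other 36 did not pass, and the median log2 fold change was -1.21. At an FDR of at most 0.01 without the limit on size (edgeR's quasi-likelihood test), 32 of the 45 were lower, against 11.3% of all tested genes. The count of lower members was 14 without the first sample at 1 h and 0 with the cutoff as the null hypothesis. All samples at 1 h lay below all control samples in 38 of the 45, against 23.8% of all tested genes. The linker histone gene Hist1h1d fell from 34.6, 44.9 and 36.5 CPM to 8.62, 11.6 and 5.95 CPM (log2 fold change -2.17 ± 0.23, FDR 3.03e-11), and Hist2h2ac from 32.2 ± 2.35 to 9.56 ± 0.915 CPM. Histone genes are near-identical copies, so counts of single members are uncertain.

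The 3 subunits of complement C1q, which tags targets for clearance, were all higher. C1qa rose from 86.6, 84.8 and 87.7 CPM to 346, 344 and 361 CPM (log2 fold change 2.02 ± 0.10, FDR 7.54e-23), C1qb from 1080.0 ± 31.9 to 3145 ± 72.4 CPM and C1qc from 718 ± 55.4 to 2206 ± 23.1 CPM. No sample at 1 h overlapped a control sample in any of the 3. With the cutoff as the null hypothesis, 1 of the 3 stayed higher. Among 16 genes of the unfolded protein response, which eases protein folding in the endoplasmic reticulum, 5 were higher and the other 11 did not pass. Those 5 are 31.25%, against 5.04% of all tested genes. At an FDR of at most 0.01 without the limit on size, 13 of the 16 were higher, against 14.7% of all tested genes. The count of higher members was 4 to 7 with 1 sample left out and 3 with the cutoff as the null hypothesis. The chaperone Hspa5 rose from 244 ± 18.4 to 1123 ± 16.6 CPM (log2 fold change 2.20) and Herpud1 from 22.6 ± 5.78 to 119.8 ± 32.0 CPM (2.41), while the stress factor Ddit3 went from 14.9 to 8.15 CPM (-0.87, FDR 0.00620) without passing.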
